A study of Homo sapiens with 12 samples.

Results

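The 42 genes described here encode the enzymes of glycolysis, the proteins that set or feed its flux, and well-known targets of the hypoxia-inducible factors (HIF), together with 2 HIF alpha subunits. They were found by symbol in a table of raw counts per gene. All 42 are among its 53712 named rows, and all 42 passed the filter on low counts that 17228 genes passed. By role they are 16 glycolysis enzymes, 4 regulators of glycolytic flux, 3 glucose and lactate transporters, 5 secreted or pH-related hypoxia targets, 3 mitochondrial hypoxia targets, 5 prolyl hydroxylases and a histone demethylase taken as 1 group, 4 other hypoxia targets and the 2 HIF alpha subunits.

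RNA was sequenced in 12 libraries from H9, an established line of human embryonic stem cells, grown in RSeT medium, which is sold for keeping such cells in the naive state of pluripotency. Cells of the first group received antisense oligonucleotides against the RNA of LINE1 retrotransposons (ASO-L1), and 2 comparison groups received sense oligonucleotides for LINE1 (SO-L1) or a control antisense set without a specific target (ASO-Ctr), with 4 libraries in each group. All 3 groups were given 25 nM oligonucleotide by lipofection. All were then kept in RSeT with 10 nM DZNep, an inhibitor of S-adenosylhomocysteine hydrolase that lowers histone methylation, and 5 nM TSA, a histone deacetylase inhibitor. Trans-ISRIB at 0.7 uM, which counters the integrated stress response, the caspase inhibitor emricasan at 5 uM and the ROCK inhibitor Y-27632 at 10 uM were present in all groups and were removed after 24 h. Cells were collected unsorted at 48 h, so each library is a bulk average over transfected and untransfected cells of 1 cell line. The oxygen level of the incubator is not given in the sources used here, and the level of LINE1 RNA was not analysed here. Libraries carry the replicate numbers 1 to 4, and the labels do not say whether these were separate cultures or days, so p-values measure only the spread between these libraries.

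Glycolysis splits glucose into pyruvate, and when pyruvate is made into lactate the pathway can run without oxygen. When oxygen is scarce, the prolyl hydroxylases that mark HIF alpha subunits for destruction slow down, and the stabilised factors raise transcription of glucose transporters, glycolytic enzymes, pyruvate dehydrogenase kinase, mitophagy receptors and their own hydroxylases. Pluripotent stem cells in culture are known for high glycolytic flux, and the balance between glycolysis and respiration differs between naive and primed states.

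HIF binds DNA at a core motif of 5 bases, ACGTG or GCGTG, and 5 of the upstream stretches are shown as examples. BNIP3, PDK1, HK2 and PGK1 were lower under ASO-L1 once replicate numbers were matched, and ANKRD37 was higher in the same test. PGK1 is a textbook HIF target. The examples were picked by hand and do not stand for the 42 genes. Their windows, described below, hold from 2 (PDK1) to 6 (BNIP3 and HK2) matches, against a mean of 1.74 over the 35 genes with a window. Each line is the 250 bases before the transcription start given by RefSeq (build GRCh38.p14), read 5′ to 3′ on the gene's strand. Capitals mark ACGTG or GCGTG on either strand. CACGTG reads as ACGTG on both strands and so gives 2 matches.
BNIP3: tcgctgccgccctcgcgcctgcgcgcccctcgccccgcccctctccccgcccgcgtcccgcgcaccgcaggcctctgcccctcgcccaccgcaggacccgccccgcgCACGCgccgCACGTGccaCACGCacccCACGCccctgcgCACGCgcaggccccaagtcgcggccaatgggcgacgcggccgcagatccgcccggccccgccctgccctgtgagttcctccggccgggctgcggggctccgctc
PDK1: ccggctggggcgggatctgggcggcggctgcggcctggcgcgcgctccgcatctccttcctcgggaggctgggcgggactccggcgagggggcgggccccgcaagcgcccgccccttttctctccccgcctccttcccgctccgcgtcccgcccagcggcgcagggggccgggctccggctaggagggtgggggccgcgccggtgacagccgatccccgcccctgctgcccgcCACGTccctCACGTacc
HK2: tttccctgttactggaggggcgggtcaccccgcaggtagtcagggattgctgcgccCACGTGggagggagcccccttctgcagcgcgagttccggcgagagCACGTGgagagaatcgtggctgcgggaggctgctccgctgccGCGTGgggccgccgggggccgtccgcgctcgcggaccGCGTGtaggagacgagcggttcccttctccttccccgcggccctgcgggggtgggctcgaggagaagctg
PGK1: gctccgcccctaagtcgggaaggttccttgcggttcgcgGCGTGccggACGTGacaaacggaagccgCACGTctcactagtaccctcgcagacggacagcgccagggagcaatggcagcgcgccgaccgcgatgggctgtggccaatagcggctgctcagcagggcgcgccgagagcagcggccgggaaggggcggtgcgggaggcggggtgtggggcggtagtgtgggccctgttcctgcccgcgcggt
ANKRD37: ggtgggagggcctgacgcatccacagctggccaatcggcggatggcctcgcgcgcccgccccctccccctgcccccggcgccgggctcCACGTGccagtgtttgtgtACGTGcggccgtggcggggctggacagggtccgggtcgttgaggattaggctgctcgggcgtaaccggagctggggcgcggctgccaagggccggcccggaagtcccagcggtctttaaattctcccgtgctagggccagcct
The stretches lie at chr10:131981924-131982173, minus strand for BNIP3, chr2:172555840-172556089, plus strand for PDK1, chr2:74834920-74835169, plus strand for HK2, chrX:78103998-78104247, plus strand for PGK1 and chr4:185396591-185396840, plus strand for ANKRD37. BNIP3 has 5 blocks of capitals, HK2 has 4, PGK1 has 3, and PDK1 and ANKRD37 have 2 each. In PDK1 the pair of blocks ends 3 bases before the start. RefSeq's promoter table holds 35 of the 42 genes in windows of 300 bases, from 250 before to 50 after the start. Of these, 29 hold at least 1 match (82.9%), against 48.4% of all 35116 windows in the table. ACGTG alone is present in 45.7% of the 35 windows and in 21.4% of all. The windows of the 35 genes are also richer in G and C, with a median of 69.0% against 58.7%, and the motif itself is rich in them. HK1, PFKM, PGAM1, EGLN3, P4HA2 and HIF1A have no match in this window, which says only that these letters are not within it. Each of the 35 genes was searched at a single start, and any other starts were not covered.

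Library totals ran from 20367989 to 32180891 counts. Values below are CPM, counts per 1000000 counts of the effective library size, which is the total multiplied by a TMM factor that stayed between 0.986 and 1.02. The 42 genes together took 1.12 to 1.21% of all counts in numbers 3 and 4, against 1.58 to 1.80% in numbers 1 and 2. Mitochondrially encoded RNAs took 6.04 to 8.81% in numbers 3-4 and 4.74 to 8.08% in numbers 1-2, and these ranges overlap. All 8 markers of pluripotent stem cells were expressed in every library. Several of these glycolytic genes, among them GAPDH, PGK1, PGAM1, TPI1, ENO1, LDHA and BNIP3, have processed pseudogenes, and SLC2A3 has a near-identical neighbour in SLC2A14. How reads that map to several places were counted is not given in the sources used here, so their levels are uncertain to that degree.

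In all 3 oligonucleotide groups, libraries numbered 3 and 4 held less RNA of most of these genes than libraries numbered 1 and 2. Of the 42 genes, 34 were lower in all 6 libraries of numbers 3-4 than in any of the 6 libraries of numbers 1-2 (81.0%, against 9.27% of all 17228 tested genes). EPAS1, which encodes the alpha subunit of HIF-2, was the 1 gene higher in all 6 libraries of numbers 3-4 (2.38%, against 9.17% of all genes). The 2 sets were kept apart because their levels were known to differ, so these values are a description and carry no test. As bulk libraries, they cannot tell fewer cells of a type from less RNA per cell. Within each group the summed level of 8 pluripotency markers was also lower in numbers 3-4 and that of 12 fibroblast and feeder markers higher. Single markers did not all follow these sums, as the values given beside the marker lists show. The part of the markers in this difference was not tested.

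On the log2 scale, the level in numbers 3-4 over that in numbers 1-2, averaged over the 3 groups, had a median of -0.84 for the 42 genes and of 0.0074 for all tested genes. At least 2-fold lower levels were found for 14 of the 42 (33.3%, against 0.731% of all genes), and at least 2-fold higher levels for 0 (against 1.75%). By role, the median ratio was -1.41 for the transporters, -1.25 for the mitochondrial targets, -1.22 for the flux regulators, -1.18 for the secreted and pH-related targets, -1.03 for the hydroxylases and demethylase, -0.77 for the other targets and -0.48 for the glycolysis enzymes. Every one of the transporters, secreted targets, mitochondrial targets, hydroxylases and the demethylase was among the 34.

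STC1, a secreted glycoprotein hormone, had the largest ratio of the 42, -2.15, with 8.13 to 11.6 CPM in numbers 3-4, against 32.1 to 50.9 CPM in numbers 1-2. Next came EGLN1, the main prolyl hydroxylase acting on HIF alpha, at -1.73, with 12.2 to 19.1 CPM in numbers 3-4, against 48.1 to 57.8 CPM in numbers 1-2. In both genes the sets were far apart within each oligonucleotide group. SLC16A3, which exports lactate, had 30.96 to 48.9 CPM in numbers 3-4, against 86.2 to 122 CPM in numbers 1-2. PFKFB3 and PFKFB4 make and degrade an allosteric activator of phosphofructokinase. PFKFB3 held 41.4 to 56.9 CPM in numbers 3-4, against 113 to 139 CPM in numbers 1-2, and PFKFB4 held 21.8 to 26.7 CPM in numbers 3-4, against 54.3 to 73.3 CPM in numbers 1-2. Their log2 ratios were -1.47 and -1.47, and that of SLC16A3 was -1.50.

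The glycolytic enzymes were spread along the scale. LDHA, which turns pyruvate into lactate, had a log2 ratio of -0.996, with 677 to 821 CPM in numbers 3-4, against 1319 to 1599.5 CPM in numbers 1-2. HK2, the inducible hexokinase, had -0.97, and PGK1, phosphoglycerate kinase, -0.88. ENO1, PFKL, ALDOA and GPI lay between -0.62 and -0.54, and GAPDH, PKM, PGAM1 and TPI1 between -0.31 and -0.16. HK1, the hexokinase found in most tissues, differed little at -0.059, with 261 to 274 CPM in numbers 3-4, against 266 to 291 CPM in numbers 1-2, and PFKP, the platelet-type phosphofructokinase, had a ratio of 0.0084. These last 2 genes had overlapping sets.

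HIF1A mRNA, which encodes the alpha subunit of HIF-1, differed little as well, with a log2 ratio of -0.14, from 241 to 296 CPM in numbers 3-4, against 264 to 324 CPM in numbers 1-2. EPAS1 had 3.21 to 4.69 CPM in numbers 3-4, against 1.89 to 2.52 CPM in numbers 1-2, a log2 ratio of 0.84. Its level was low throughout. The sets overlapped in 7 of the 42 genes, ANKRD37, ENO2, PFKFB2, NDRG1, HIF1A, HK1 and PFKP. In the authors' deposited table of batch-corrected log2 values, the mean of numbers 3-4 minus that of numbers 1-2 lay between -0.043 and 0.0041 for all 42 genes, so the difference between the sets is absent from that table.

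**Figure D1:**
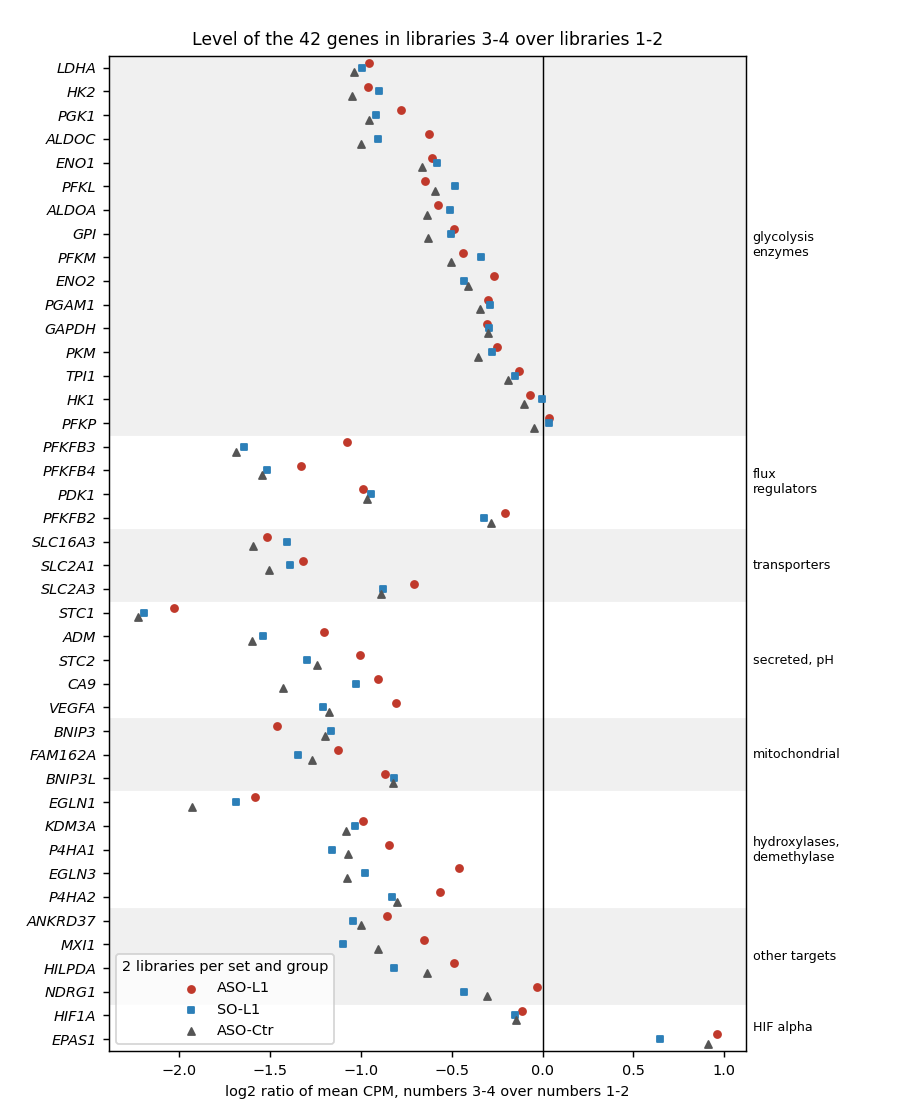
The horizontal axis is the log2 ratio of mean CPM in numbers 3-4 over numbers 1-2, and each of the 42 genes has a row with 1 point per oligonucleotide group (red circles ASO-L1, blue squares SO-L1, grey triangles ASO-Ctr; 2 libraries per set and group). Points lie left of 0 for most genes in all 3 groups, reach -2.23 for STC1 in ASO-Ctr, and lie right of 0 in all 3 groups for EPAS1.

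Isoenzymes differed in which form carried the difference between sets. Levels were compared between genes as CPM per kb, after division by the merged exon length of each gene in GENCODE v29. HK1 had 60.2 ± 1.76 in ASO-L1, 57.8 ± 0.927 in SO-L1 and 58.6 ± 2.60 in ASO-Ctr CPM per kb (mean ± SD, n = 4 each), and HK2 had 25.2 ± 9.39 in ASO-L1, 29.8 ± 10.4 in SO-L1 and 29.9 ± 12.1 in ASO-Ctr. HK1 was thus the more abundant hexokinase mRNA in each group, and HK2 had the wider spread. In numbers 3-4 of ASO-L1, HK1 stood at 58.7 CPM per kb and HK2 at 17.1, and in numbers 1-2 at 61.6 and 33.3.

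Among the phosphofructokinases the order was PFKL, PFKP, PFKM in each group: PFKL had 88.6 ± 22.6 in ASO-L1, 102 ± 19.6 in SO-L1 and 97.1 ± 22.7 in ASO-Ctr CPM per kb, PFKP 38.5 ± 0.617 in ASO-L1, 48.3 ± 1.24 in SO-L1 and 47.2 ± 1.13 in ASO-Ctr, and PFKM 14.5 ± 2.54 in ASO-L1, 15.2 ± 2.10 in SO-L1 and 15.3 ± 3.05 in ASO-Ctr (mean ± SD, n = 4 each). The enolase that serves most tissues, ENO1, stood at 889 ± 214 in ASO-L1, 995 ± 229 in SO-L1 and 980.2 ± 258 in ASO-Ctr CPM per kb, and the neuronal form ENO2 at 131 ± 14.5 in ASO-L1, 104 ± 18.00 in SO-L1 and 96.9 ± 15.99 in ASO-Ctr (mean ± SD, n = 4 each). ALDOA was far above ALDOC, with 406 ± 92.3 and 18.3 ± 4.52 CPM per kb in ASO-L1. The neuronal-type glucose transporter SLC2A3 stood above the erythrocyte-type SLC2A1, with 167 ± 46.5 and 66.9 ± 33.05 CPM per kb in ASO-L1, against 157 ± 54.3 and 81.6 ± 45.3 in ASO-Ctr. For HIF1A the level was 60.8 ± 3.29 CPM per kb in ASO-L1 and for EPAS1 0.556 ± 0.214. Exons of all annotated transcripts enter the length, so genes with long alternative ends are understated.

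**Figure D2:**
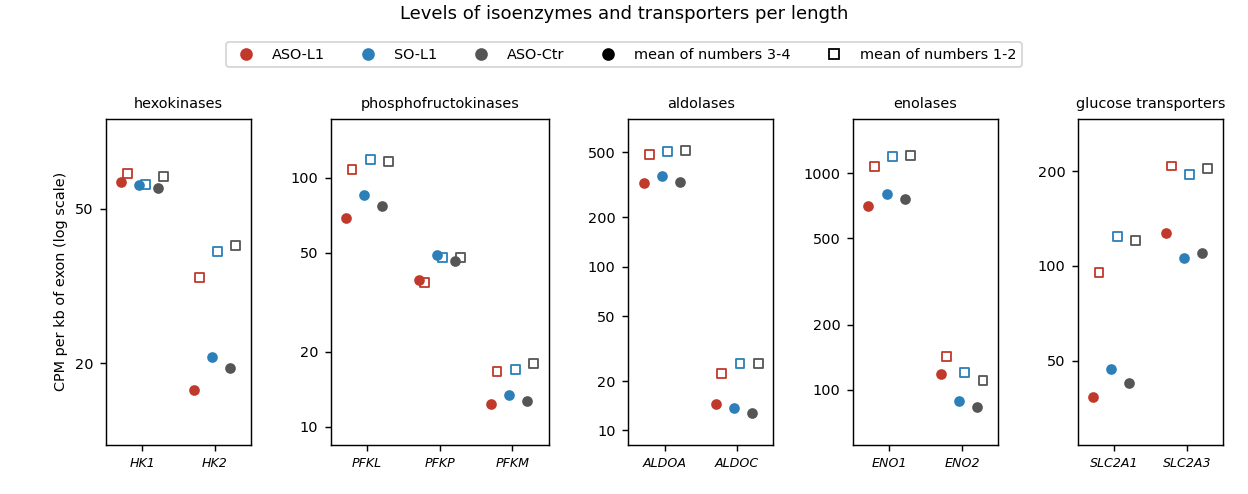
Each panel shows the forms of 1 enzyme or transporter, with CPM per kb of merged exon on a log axis, coloured by group (red ASO-L1, blue SO-L1, grey ASO-Ctr); filled circles are means of numbers 3-4 and open squares means of numbers 1-2. HK1 and PFKP stay at nearly 1 level in both sets, while HK2, SLC2A1 and ALDOC are lower in numbers 3-4.

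The comparison of ASO-L1 with ASO-Ctr asks which of these genes differ in cells given antisense oligonucleotides against LINE1. NDRG1 rose, and ENO2 and PFKFB2 rose by less. PFKP and HIF1A fell. The other 37 of the 42 genes did not pass the test, edgeR's quasi-likelihood test with a Benjamini-Hochberg adjusted p under 0.05. The counts were 3 higher (7.14%, against 11.6% of all tested genes) and 2 lower (4.76%, against 10.7%). The median log2 fold change was -0.12 for the 42 genes and -0.0010 for all tested genes.

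That test takes a mean per group, so the difference between the sets counts as replicate spread. When the replicate number entered the model as a block, so that each library was read against those of its own number, 6 genes were higher (14.3%, against 22.5% of all genes) and 20 were lower (47.6%, against 22.5%). The 20 are BNIP3L, PDK1, BNIP3, KDM3A, STC1, SLC16A3, PFKP, MXI1, SLC2A1, PFKFB4, HK2, HIF1A, P4HA1, LDHA, HILPDA, PFKL, ENO1, PGK1, PGAM1 and FAM162A. The 6 are NDRG1, ANKRD37, ENO2, PFKFB2, P4HA2 and SLC2A3. With the block, p-values measure the spread within the sets, where libraries of the same number were hardly more alike than others of that set. Whether the numbers of a set are independent repeats is not known. The sizes of change hardly differed between both fits, and the errors did: STC1 had a log2 fold change of -0.44 ± 0.74 (SE; adjusted p = 0.729) without the block and of -0.43 ± 0.058 (SE; adjusted p = 1.68e-07) with it, by edgeR. Without the block the values also moved with single libraries: over the 12 fits that leave out 1 library, the log2 fold change ran from -0.85 to -0.034 for STC1, from -0.65 to -0.055 for SLC16A3, from -0.53 to -0.0050 for SLC2A1 and from -0.65 to -0.26 for KDM3A, and it ran from -0.68 to -0.34 for PDK1 and from -0.79 to -0.49 for BNIP3L. With the block, the median log2 fold change was -0.10 for the 42 genes and -0.00059 for all tested genes. The blocked fit was also made without each replicate number in turn: 4 of the 6 higher and 16 of the 20 lower genes passed every time, and SLC2A3, P4HA2, FAM162A, P4HA1, MXI1 and HILPDA did not. With no test, ASO-L1 libraries were above the ASO-Ctr libraries within both sets for 4 genes (9.52%, against 22.3% of all genes) and below them for 17 (40.5%, against 22.5%). limma on the authors' batch-corrected log2 values called 7 higher (16.7%, against 22.5% of all genes) and 20 lower (47.6%, against 21.8%). That model has group means only and takes no account of the earlier correction, so its p-values may be too small.

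NDRG1, a protein of differentiating and stressed cells that is induced by hypoxia and by iron loss, changed most. NDRG1 stood in ASO-L1 at 23.5 and 20.04 CPM in numbers 3 and 4 and 22.1 and 22.5 CPM in numbers 1 and 2. SO-L1 had 7.61 and 7.07 CPM in numbers 3 and 4 and 10.6 and 9.28 CPM in numbers 1 and 2, and ASO-Ctr had 6.88 and 7.39 CPM in numbers 3 and 4 and 7.87 and 9.79 CPM in numbers 1 and 2. Every ASO-L1 library was above every other library, and within ASO-L1 the sets overlapped. The log2 fold change was 1.46 ± 0.13 (SE; adjusted p = 8.02e-06) against ASO-Ctr, a 2.75-fold rise, and higher in 4 of 4 same-number pairs, by edgeR. Over all alternatives tried, its adjusted p ran from 1.68e-26 to 6.78e-05.

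ENO2, the neuronal enolase, went the other way from ENO1. ENO2 stood in ASO-L1 at 391 and 359 CPM in numbers 3 and 4 and 445 and 456 CPM in numbers 1 and 2. Values were 281 and 282 CPM in numbers 3 and 4 and 375 and 384 CPM in numbers 1 and 2 for SO-L1, and 265 and 261 CPM in numbers 3 and 4 and 357 and 342 CPM in numbers 1 and 2 for ASO-Ctr. The 4 ASO-L1 libraries were above the 4 ASO-Ctr libraries, although number 4 of ASO-L1 and number 1 of ASO-Ctr almost met. The log2 fold change of ENO2 was 0.43 ± 0.13 (SE; adjusted p = 0.0360) by edgeR, higher in 4 of 4 pairs. ENO1 had -0.14 ± 0.22 (SE; adjusted p = 0.708) without the block and -0.13 ± 0.027 (SE; adjusted p = 1.09e-04) with it. The call for ENO2 was lost without ASO-L1 1 (adjusted p = 0.105), ASO-L1 2 (0.111), ASO-L1 3 (0.0545), ASO-Ctr 3 (0.112) or ASO-Ctr 4 (0.102), and without the filter on low counts (0.160), all by edgeR; over all alternatives its adjusted p ran from 8.85e-21 to 0.160.

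PFKP was the 1 phosphofructokinase called without the block. PFKP stood in ASO-L1 at 146 and 149 CPM in numbers 3 and 4 and 144 and 143 CPM in numbers 1 and 2. Among the other libraries, those of SO-L1 had 185 and 184 CPM in numbers 3 and 4 and 175 and 185 CPM in numbers 1 and 2, and those of ASO-Ctr 178 and 173 CPM in numbers 3 and 4 and 179 and 184 CPM in numbers 1 and 2. All 4 ASO-L1 libraries were below all 8 others, and over the 12 libraries the sets overlapped. By edgeR the log2 fold change of PFKP was -0.29 ± 0.034 (SE; adjusted p = 6.03e-05), lower in 4 of 4 pairs. Its adjusted p stayed between 1.49e-15 and 3.44e-04 over all alternatives. PFKL had -0.14 ± 0.032 (SE; adjusted p = 6.25e-04) with the block, and PFKM, the muscle form, -0.079 ± 0.039 (SE; adjusted p = 0.0948).

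Other enzymes that were lower with the block had small changes. HK2 had a blocked log2 fold change of -0.23 ± 0.034 (SE; adjusted p = 8.73e-07), LDHA of -0.17 ± 0.032 (SE; adjusted p = 4.96e-05), PGK1 of -0.13 ± 0.034 (SE; adjusted p = 0.00348) and PGAM1 of -0.12 ± 0.030 (SE; adjusted p = 7.93e-04), by edgeR; without the block their adjusted p ran from 0.489 to 0.789. In HK2 and PGAM1 the ASO-L1 libraries were below the ASO-Ctr libraries within both sets. HK1, GPI, ALDOA, ALDOC, TPI1, GAPDH, PKM and PFKM passed neither test, with blocked log2 fold changes from -0.079 (PFKM) to 0.039 (HK1).

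Regulators of flux moved in both directions. PFKFB2, a form of the enzyme pair that sets the activator of phosphofructokinase, rose by a log2 fold change of 0.36 ± 0.10 (SE; adjusted p = 0.0244) against ASO-Ctr, by edgeR. PFKFB2 stood in ASO-L1 at 45.5 and 45.2 CPM in numbers 3 and 4 and 50.6 and 54.03 CPM in numbers 1 and 2. The SO-L1 libraries held 34.1 and 35.9 CPM in numbers 3 and 4 and 44.4 and 43.3 CPM in numbers 1 and 2, and the ASO-Ctr libraries 35.2 and 33.6 CPM in numbers 3 and 4 and 43.3 and 40.4 CPM in numbers 1 and 2. Within each set the ASO-L1 libraries were the highest. The call was lost without ASO-L1 1 (adjusted p = 0.0713), ASO-L1 2 (0.0874), ASO-Ctr 3 (0.0794) or ASO-Ctr 4 (0.0723), by edgeR, and over all alternatives its adjusted p ran from 1.05e-08 to 0.0874.

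PDK1, the kinase that shuts off pyruvate dehydrogenase and so keeps pyruvate out of the mitochondria, was lower within both sets. PDK1 stood in ASO-L1 at 60.7 and 58.7 CPM in numbers 3 and 4 and 119 and 118 CPM in numbers 1 and 2. SO-L1 had 84.8 and 89.8 CPM in numbers 3 and 4 and 171 and 165 CPM in numbers 1 and 2, and ASO-Ctr had 81.5 and 89.8 CPM in numbers 3 and 4 and 169 and 166 CPM in numbers 1 and 2. In each set the ASO-L1 pair lay well below the other libraries of that set, while ASO-L1 numbers 1 and 2 lay above every other group's numbers 3 and 4. The log2 fold change of PDK1 was -0.51 ± 0.35 (SE; adjusted p = 0.347) without the block and -0.51 ± 0.034 (SE; adjusted p = 1.32e-14) with it, by edgeR. PFKFB4 had -0.24 ± 0.050 (SE; adjusted p = 2.37e-04) with the block.

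The transporters split. SLC2A1, the glucose transporter best known as a HIF target, was lower with the block. SLC2A1 stood in ASO-L1 at 153 and 152 CPM in numbers 3 and 4 and 376 and 385 CPM in numbers 1 and 2. Values were 182 and 193 CPM in numbers 3 and 4 and 493 and 493 CPM in numbers 1 and 2 for SO-L1, and 159.5 and 179 CPM in numbers 3 and 4 and 465 and 497 CPM in numbers 1 and 2 for ASO-Ctr. Within each set both ASO-L1 libraries were below all others. Its log2 fold change was -0.29 ± 0.50 (SE; adjusted p = 0.745) without the block and -0.25 ± 0.035 (SE; adjusted p = 6.75e-07) with it, by edgeR. The lactate exporter SLC16A3 had -0.33 ± 0.055 (SE; adjusted p = 7.83e-05) with the block, from 32.7 and 30.96 CPM in ASO-L1 numbers 3 and 4 and 86.2 and 95.9 CPM in numbers 1 and 2, against 33.6 and 44.1 and then 115 and 119.8 CPM in the same numbers of ASO-Ctr. SLC2A3 had 0.12 ± 0.033 (SE; adjusted p = 0.00392) with the block, and its call was among those lost when a number was left out.

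Both mitophagy receptors, BNIP3 and BNIP3L, and the mitochondrial protein FAM162A were lower with the block and none was called without it. BNIP3L stood in ASO-L1 at 32.7 and 33.4 CPM in numbers 3 and 4 and 60.7 and 59.7 CPM in numbers 1 and 2. Among the other libraries, those of SO-L1 had 52.3 and 52.03 CPM in numbers 3 and 4 and 91.4 and 92.2 CPM in numbers 1 and 2, and those of ASO-Ctr 50.1 and 54.2 CPM in numbers 3 and 4 and 92.1 and 92.5 CPM in numbers 1 and 2. The ASO-L1 pair of each set was lower than the other 4 libraries of that set, by a log2 fold change of -0.63 ± 0.037 (SE; adjusted p = 5.88e-16) with the block, against -0.63 ± 0.30 (SE; adjusted p = 0.159) without it, by edgeR. BNIP3 had -0.48 ± 0.070 (SE; adjusted p = 4.33e-04) and FAM162A -0.12 ± 0.045 (SE; adjusted p = 0.0242) with the block.

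Among the secreted and pH-related targets, STC1 was lower with the block. STC1 stood in ASO-L1 at 8.65 and 8.13 CPM in numbers 3 and 4 and 32.1 and 36.5 CPM in numbers 1 and 2. The SO-L1 libraries held 10.5 and 11.6 CPM in numbers 3 and 4 and 50.3 and 50.9 CPM in numbers 1 and 2, and the ASO-Ctr libraries 9.14 and 11.4 CPM in numbers 3 and 4 and 45.98 and 50.2 CPM in numbers 1 and 2. The span between the sets was larger than that between the groups. STC2, VEGFA, ADM, which encodes a vasodilating peptide, and the carbonic anhydrase CA9 passed neither test, with blocked log2 fold changes from 0.066 (STC2) to 0.14 (ADM). CA9 was near the limit of the counts, at 0.398 to 1.74 CPM over the 12 libraries.

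KDM3A, a demethylase of histone H3 lysine 9 that HIF induces, was lower with the block. KDM3A stood in ASO-L1 at 43.7 and 43.9 CPM in numbers 3 and 4 and 84.97 and 88.97 CPM in numbers 1 and 2. SO-L1 had 59.8 and 60.8 CPM in numbers 3 and 4 and 124 and 123 CPM in numbers 1 and 2, and ASO-Ctr had 53.7 and 61.6 CPM in numbers 3 and 4 and 121 and 123 CPM in numbers 1 and 2. In either set the ASO-L1 libraries were the lowest. Its log2 fold change was -0.46 ± 0.37 (SE; adjusted p = 0.438) without the block and -0.44 ± 0.037 (SE; adjusted p = 4.16e-12) with it, by edgeR. P4HA1 and P4HA2, alternative catalytic subunits of the collagen prolyl hydroxylase, had -0.18 ± 0.053 (SE; adjusted p = 0.0127) and 0.17 ± 0.056 (SE; adjusted p = 0.0120) with the block. EGLN1 and EGLN3, the hydroxylases acting on HIF alpha, had 0.016 ± 0.057 (SE; adjusted p = 0.845) and -0.081 ± 0.15 (SE; adjusted p = 0.700).

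ANKRD37, an ankyrin-repeat protein induced by HIF, was higher with the block at a low level. ANKRD37 stood in ASO-L1 at 1.22 and 1.27 CPM in numbers 3 and 4 and 2.16 and 2.35 CPM in numbers 1 and 2. Values were 0.744 and 0.974 CPM in numbers 3 and 4 and 1.58 and 1.96 CPM in numbers 1 and 2 for SO-L1, and 0.716 and 0.784 CPM in numbers 3 and 4 and 1.23 and 1.77 CPM in numbers 1 and 2 for ASO-Ctr. ASO-L1 was the highest group within each set. Its log2 fold change was 0.63 ± 0.36 (SE; adjusted p = 0.249) without the block and 0.63 ± 0.17 (SE; adjusted p = 0.00333) with it, by edgeR. MXI1, an antagonist of MYC, had -0.26 ± 0.079 (SE; adjusted p = 0.00831), and HILPDA, a lipid-droplet protein, -0.14 ± 0.057 (SE; adjusted p = 0.0401) with the block.

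HIF1A itself fell. HIF1A stood in ASO-L1 at 241 and 256 CPM in numbers 3 and 4 and 274 and 264 CPM in numbers 1 and 2. Among the other libraries, those of SO-L1 had 296 and 283 CPM in numbers 3 and 4 and 319 and 324 CPM in numbers 1 and 2, and those of ASO-Ctr 279 and 293 CPM in numbers 3 and 4 and 315 and 319 CPM in numbers 1 and 2. The 4 ASO-L1 libraries were below the 8 others. Its log2 fold change was -0.22 ± 0.058 (SE; adjusted p = 0.0159) by edgeR, lower in 4 of 4 pairs. The adjusted p was 0.0509 without ASO-L1 3 and ran from 1.68e-07 to 0.0509 over all alternatives. The strand setting of the counting is not given in the sources used here, so antisense transcripts of the HIF1A locus cannot be told apart from it. EPAS1 had -0.24 ± 0.31 (SE; adjusted p = 0.641) by edgeR and -0.24 ± 0.13 (SE; adjusted p = 0.124) with the block.

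**Figure D3:**
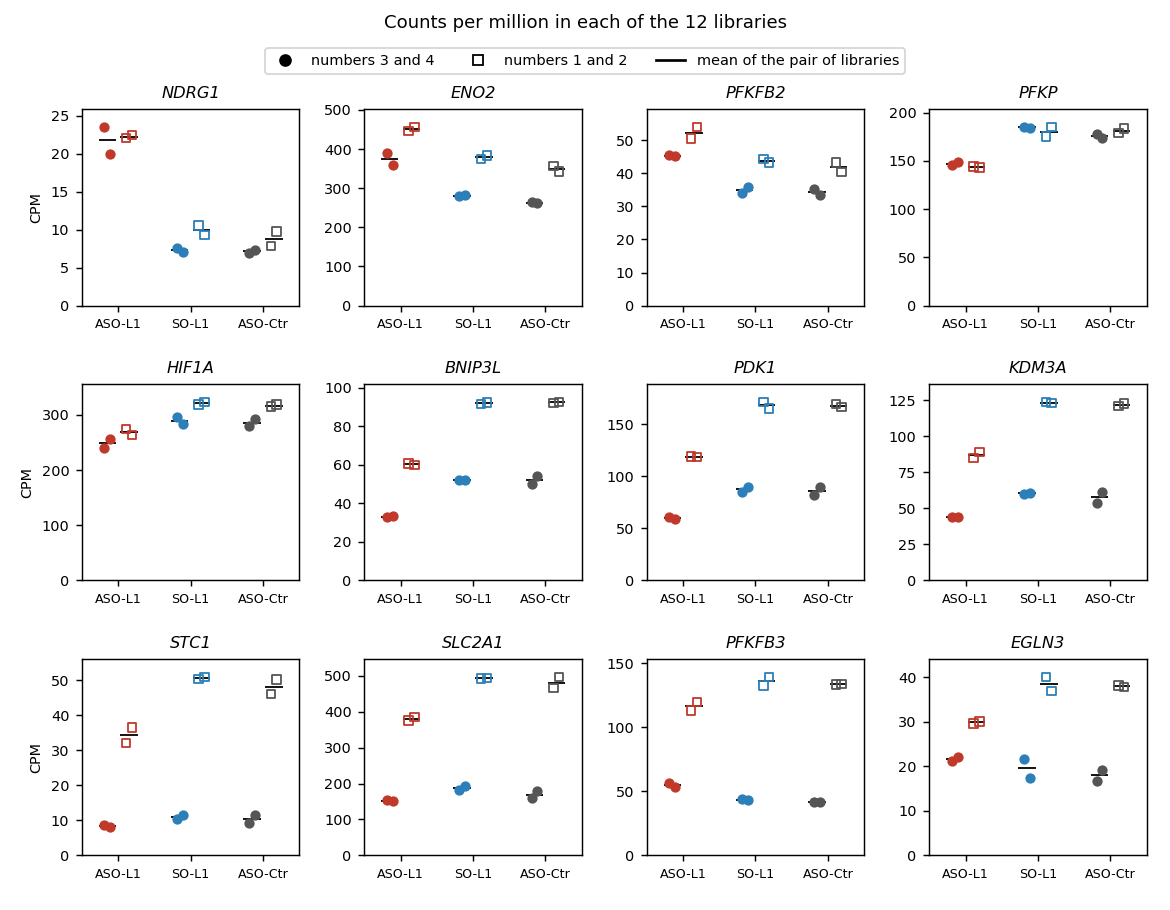
Each panel shows 1 gene, with CPM on a linear vertical axis from 0 and the groups ASO-L1, SO-L1 and ASO-Ctr from left to right; filled circles are numbers 3 and 4, open squares numbers 1 and 2, and bars the mean of each pair. NDRG1, ENO2 and PFKFB2 are highest in ASO-L1 within each set, PFKP and HIF1A are lowest there, and for BNIP3L, PDK1, KDM3A, STC1 and SLC2A1 the step between the sets is larger than that between the groups.

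Against the sense oligonucleotides SO-L1, which share the ASO-L1 libraries with the comparison above, NDRG1 and PFKFB2 rose and PFKP and HIF1A fell. These 2 higher genes (4.76%) stand against 10.7% of all tested genes, and the 2 lower genes (4.76%) against 9.64%. By edgeR the log2 fold change was 1.36 ± 0.13 (SE; adjusted p = 1.80e-05) for NDRG1, 0.31 ± 0.10 (SE; adjusted p = 0.0499) for PFKFB2, -0.33 ± 0.034 (SE; adjusted p = 3.30e-05) for PFKP and -0.24 ± 0.058 (SE; adjusted p = 0.0115) for HIF1A. All 4 moved the same way in 4 of 4 pairs. ENO2 had 0.32 ± 0.13 (SE; adjusted p = 0.113) and did not pass without the block. PFKFB2 stood at the threshold: its call was lost when ASO-L1 1, 2, 3 or 4, SO-L1 3 or 4 or ASO-Ctr 2 or 3 was left out, with adjusted p from 0.0575 to 0.152, and with RLE size factors (0.0539) or no filter on low counts (0.0746).

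With the replicate block, 5 of the 42 genes were higher than in SO-L1 (11.9%, against 21.6% of all genes) and 22 were lower (52.4%, against 21.7%). Blocked log2 fold changes were -0.63 ± 0.037 (SE; adjusted p = 8.81e-16) for BNIP3L, -0.59 ± 0.069 (SE; adjusted p = 1.33e-04) for BNIP3 and -0.52 ± 0.034 (SE; adjusted p = 7.98e-15) for PDK1, by edgeR. KDM3A had -0.48 ± 0.037 (SE; adjusted p = 5.85e-13), STC1 -0.51 ± 0.058 (SE; adjusted p = 5.18e-09) and SLC2A1 -0.34 ± 0.035 (SE; adjusted p = 2.44e-09). The 5 are NDRG1, ANKRD37, ENO2, PFKFB2 and SLC2A3, and the 22 are the 20 genes named as lower against ASO-Ctr, GPI and ALDOA. GPI and ALDOA had -0.080 ± 0.031 (SE; adjusted p = 0.0372) and -0.091 ± 0.029 (SE; adjusted p = 0.00944), and ENO2 had 0.33 ± 0.033 (SE; adjusted p = 7.81e-10). Without each replicate number in turn, 4 of the 5 higher and 18 of the 22 lower genes passed every time, and ANKRD37, GPI, ALDOA, MXI1 and HILPDA did not. With no test, ASO-L1 libraries were above the SO-L1 libraries within both sets for 6 genes (14.3%, against 21.6% of all genes) and below them for 20 (47.6%, against 21.7%). limma on the authors' batch-corrected log2 values, with the limit given above, called 7 higher (16.7%, against 22.4% of all genes) and 23 lower (54.8%, against 21.0%). The median log2 fold change with the block was -0.14 for the 42 genes and -0.0019 for all tested genes.

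In the authors' deposited table, 3 of the 42 genes are higher in ASO-L1 than in SO-L1 (7.14%, against 12.9% of its 21414 genes) and 6 are lower (14.3%, against 12.2%) at an adjusted p under 0.05. In the authors' deposited table these are NDRG1 with a log2 fold change of 1.37, ENO2 with 0.33 and PFKFB2 with 0.32 on the higher side. On the lower side the authors' deposited table has BNIP3L with -0.62, BNIP3 with -0.58, PDK1 with -0.52, KDM3A with -0.48, PFKP with -0.33 and HIF1A with -0.24.

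Between SO-L1 and ASO-Ctr none of these genes passed the test. By edgeR 0 of the 42 were higher and 0 lower (against 0% and 0.0290% of all tested genes), and 0 had an unadjusted p under 0.05. DESeq2 and limma-voom gave 0 calls each. With the replicate block there were also 0 calls (against 0.424% and 0.987% of all genes), 6 genes with an unadjusted p under 0.05 and a smallest adjusted p of 0.134, for ENO2. The sets alone gave 0 calls as well, with 9 genes at an unadjusted p under 0.05 within numbers 3-4 (calls among all genes were 0.366% higher and 0.795% lower) and 3 within numbers 1-2 (0.250% and 0.470%). limma on the authors' batch-corrected log2 values gave 0 calls and 8 genes at an unadjusted p under 0.05, against calls for 1.04% and 1.72% of all genes. In 2 genes, ENO2 and VEGFA, the SO-L1 libraries were above the ASO-Ctr libraries within both sets (4.76%, against 5.04% of all genes), and in SLC2A3 they were below within both (2.38%, against 5.31%). Log2 fold changes ran from -0.24 (EPAS1) to 0.19 (ANKRD37), both genes of low level, with a median of 0.047 over the 42 genes and of 0.0031 over all tested genes.

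Whether the change under ASO-L1 differed between the sets was tested with an interaction term in edgeR. Against ASO-Ctr the change was more positive in numbers 3-4 than in numbers 1-2 for 3 of 42 genes (7.14%, against 0.331% of all genes). These were PFKFB3, EGLN3 and ALDOC. It was more negative for 0 (against 0.447% of all genes). At an unadjusted p under 0.05 in this test, 16 of the 42 were more positive and 1 was more negative. The share of all genes at that unadjusted threshold was not counted. In PFKFB3, EGLN3 and ALDOC, ASO-L1 was higher within numbers 3-4 and lower within numbers 1-2. PFKFB3 was higher in ASO-L1 within numbers 3-4 (0.42, adjusted p = 4.48e-10) and lower within numbers 1-2 (-0.20, adjusted p = 6.22e-04), by edgeR.

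PFKFB3 stood in ASO-L1 at 56.9 and 53.4 CPM in numbers 3 and 4 and 113 and 119.6 CPM in numbers 1 and 2. The SO-L1 libraries held 43.7 and 43.6 CPM in numbers 3 and 4 and 133 and 139 CPM in numbers 1 and 2, and the ASO-Ctr libraries 41.4 and 41.4 CPM in numbers 3 and 4 and 134 and 134 CPM in numbers 1 and 2. In numbers 3-4 both ASO-L1 libraries were above the other 4, and in numbers 1-2 both were below. The difference of the log2 fold changes was 0.61 ± 0.068 (SE; adjusted p = 1.40e-08) against ASO-Ctr and 0.57 ± 0.068 (SE; adjusted p = 9.57e-08) against SO-L1, by edgeR.

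EGLN3 behaved likewise. EGLN3 stood in ASO-L1 at 21.2 and 22.2 CPM in numbers 3 and 4 and 29.7 and 30.1 CPM in numbers 1 and 2. SO-L1 had 21.6 and 17.5 CPM in numbers 3 and 4 and 40.1 and 36.9 CPM in numbers 1 and 2, and ASO-Ctr had 16.8 and 19.2 CPM in numbers 3 and 4 and 38.2 and 37.8 CPM in numbers 1 and 2. Within numbers 3-4 the ASO-L1 libraries were above both ASO-Ctr libraries but overlapped those of SO-L1, and within numbers 1-2 they were the lowest. Its log2 fold change was 0.27, adjusted p = 0.00622 within numbers 3-4 and -0.35, adjusted p = 3.85e-05 within numbers 1-2, and the difference was 0.61 ± 0.11 (SE; adjusted p = 3.71e-04), by edgeR. For ALDOC the changes were 0.18, adjusted p = 0.0268 and -0.22, adjusted p = 0.00570 and the difference 0.39 ± 0.089 (SE; adjusted p = 0.0138). The ALDOC difference lost its call without ASO-L1 1, 2 or 3 or ASO-Ctr 2, 3 or 4, with a value of 0.25 without ASO-Ctr 2 and adjusted p from 0.0503 to 0.266. Leaving out ASO-Ctr 1 raised the number of genes with a more positive change in numbers 3-4 to 9.

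Against SO-L1 the same test called PFKFB3, EGLN3 and P4HA1 as more positive in numbers 3-4 (7.14%, against 0.546% of all genes) and BNIP3 as more negative (2.38%, against 1.21%). P4HA1 had -0.069, adjusted p = 0.301 within numbers 3-4 and -0.40, adjusted p = 1.18e-08 within numbers 1-2, by edgeR. BNIP3 was lower in both sets, with -0.74, adjusted p = 1.15e-16 and -0.46, adjusted p = 4.44e-10. The call was lost for EGLN3 without SO-L1 1 (adjusted p = 0.0833) or SO-L1 4 (0.104), for P4HA1 without SO-L1 1 (0.0833), SO-L1 3 (0.0547) or ASO-L1 4 (0.104), and for BNIP3 without ASO-L1 1, 2 or 4 or SO-L1 2 or 4, with adjusted p from 0.0509 to 0.177.

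Read within each set, the counts differed. Within numbers 3-4, 11 of the 42 genes were higher in ASO-L1 than in ASO-Ctr (26.2%, against 18.0% of all genes) and 12 were lower (28.6%, against 17.1%). Within numbers 1-2, 3 were higher (7.14%, against 17.5%) and 23 were lower (54.8%, against 17.6%). VEGFA, the endothelial growth factor, had 0.33, adjusted p = 3.06e-06 in numbers 3-4 and -0.031, adjusted p = 0.887 in numbers 1-2. ADM had 0.39, adjusted p = 3.73e-04 and -0.0047, adjusted p = 0.973. For these 2 genes the difference between the sets did not pass the test, at adjusted p = 0.435 for VEGFA and 0.245 for ADM. NDRG1, ENO2 and PFKFB2 were higher, and BNIP3, BNIP3L, ENO1, HIF1A, HK2, KDM3A, PDK1, PFKL, PFKP, PGAM1, SLC2A1 and STC1 lower, within both sets. Against SO-L1, within numbers 3-4, 9 of the 42 were higher (21.4%, against 17.8%) and 14 lower (33.3%, against 16.0%), and within numbers 1-2, 3 were higher (7.14%, against 17.2%) and 25 lower (59.5%, against 16.9%). With 2 libraries a group, each of these fits rests on 6 libraries.

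**Figure D4:**
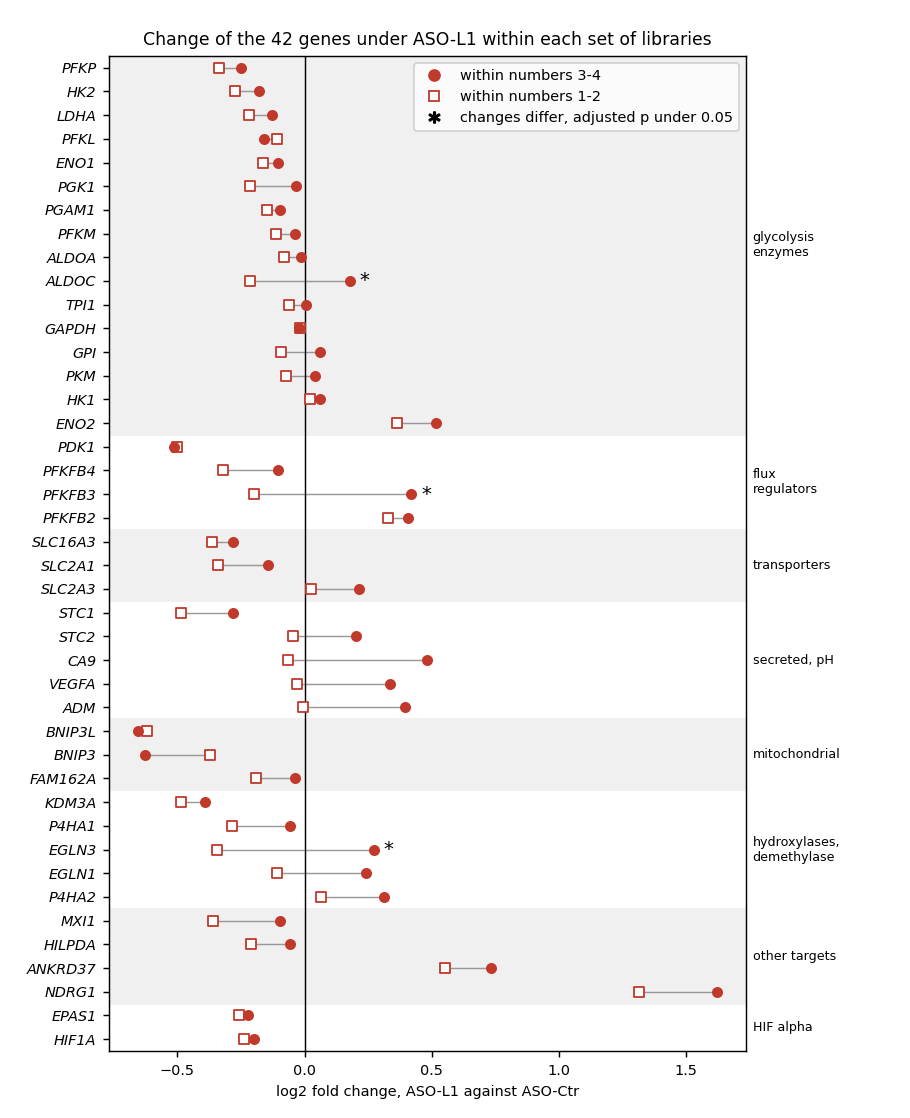
The horizontal axis is the log2 fold change of ASO-L1 against ASO-Ctr by edgeR, filled circles within numbers 3-4 and open squares within numbers 1-2, for each of the 42 genes ordered by role. Circles lie right of the squares for most genes, and an asterisk marks PFKFB3, EGLN3 and ALDOC, where the difference passed the test.

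Genes of the same pathways outside the 42 were counted from lists made for each pathway, to be read against all tested genes, of which 11.6% were higher and 10.7% lower than in ASO-Ctr, 22.5% higher and 22.5% lower with the block, and 9.27% lower in all 6 libraries of numbers 3-4. Of 38 other HIF targets, all tested, 4 rose (10.5%) and 0 fell against ASO-Ctr by edgeR (2 lower at an unadjusted p under 0.05), with a median log2 fold change of -0.18. With the block 6 were higher (15.8%) and 14 lower (36.8%). The oxygenase JMJD6 had a log2 fold change of 0.28 ± 0.053, adjusted p = 0.00206 and the mitochondrial protease LONP1 0.17 ± 0.047, adjusted p = 0.0175, by edgeR. Between the sets, 26 of the 38 were lower in all 6 libraries of numbers 3-4 (68.4%) and 1 was higher, with a median log2 ratio of -0.73.

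Of 29 other glycolysis and pyruvate genes, 23 were tested, 3 rose (13.04%) and 1 fell (4.35%), and 7 were higher (30.4%) and 5 lower (21.7%) with the block. The hexokinase-like HKDC1 had 2.06 ± 0.41, adjusted p = 0.00318, ENO3, the muscle enolase, 0.37 ± 0.082, adjusted p = 0.00562 and MPC1, a subunit of the mitochondrial pyruvate carrier, 0.37 ± 0.11, adjusted p = 0.0239, by edgeR. The level of HKDC1 was low, with means of 1.59 CPM in ASO-L1, 0.243 CPM in SO-L1 and 0.382 CPM in ASO-Ctr. Between the sets 6 of the 23 were lower in all 6 libraries of numbers 3-4 (26.1%), with a median log2 ratio of -0.095. Among 14 regulators of the HIF pathway 4 rose (28.6%) and 0 fell by edgeR, with 0 lower at an unadjusted p under 0.05, and 6 were higher (42.9%) and 1 lower (7.14%) with the block. The genes that rose include SIAH2, a ubiquitin ligase for prolyl hydroxylases, with 0.37 ± 0.066, adjusted p = 0.00151, the coactivator CREBBP with 0.42 ± 0.086, adjusted p = 0.00331 and VHL, which recognises hydroxylated HIF alpha, with 0.25 ± 0.054, adjusted p = 0.00513, by edgeR. The median ratio between the sets was 0.037 for the 14 genes.

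Of 8 genes of the pentose phosphate pathway 0 rose and 0 fell by edgeR, 1 was higher and 1 lower at an unadjusted p under 0.05, and 1 was higher (12.5%) and 2 lower (25.00%) with the block. TKT, transketolase, had 0.050 ± 0.052, adjusted p = 0.560 and PGD -0.092 ± 0.038, adjusted p = 0.110. Of 21 genes of the tricarboxylic acid cycle 3 rose (14.3%) and 4 fell (19.05%), and 3 were higher and 9 lower (42.9%) with the block. Those called include IDH3B with 0.22 ± 0.044, adjusted p = 0.00347, IDH1 with -0.26 ± 0.057, adjusted p = 0.00494 and OGDH with -0.18 ± 0.043, adjusted p = 0.00878, by edgeR. Median ratios between the sets were -0.060 for the pentose phosphate list and -0.055 for the cycle. In the list of 7 glucose-sensing and MYC genes ARRDC4 alone rose without the block, with 0.54 ± 0.17, adjusted p = 0.0382, and its adjusted p was 0.0520 with the block, by edgeR. Of the same list, 4 other genes were higher (57.1%, against 22.5% of all tested genes) and 2 were lower (28.6%, against 22.5%) with the block.

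Summed levels of cell type markers differed under ASO-L1 and, within groups, between the sets. The 8 pluripotency markers summed to 7183 to 7304 CPM in numbers 3-4 and 7827 to 7850.0 CPM in numbers 1-2 in ASO-L1, 8228 to 8355 CPM in numbers 3-4 and 8757 to 8905 CPM in numbers 1-2 in SO-L1 and 8255 to 8535 CPM in numbers 3-4 and 9039.7 to 9235 CPM in numbers 1-2 in ASO-Ctr. In each group the sum was lower in numbers 3-4 than in numbers 1-2, but not every marker followed it. Of the 8, 2 (TDGF1 and DPPA4) were lower in all 6 libraries of numbers 3-4 (25%, against 9.27% of all tested genes) and 0 higher. DNMT3B in SO-L1 was higher there, at 2856 and 2897 CPM in numbers 3 and 4, against 2715 and 2834 CPM in numbers 1 and 2. Against ASO-Ctr 5 of the 8 fell (62.5%, against 10.7% of all tested genes), and all 8 were lower with the block (against 22.5%), by edgeR.

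The 12 fibroblast and feeder markers summed to 666 to 680.1 CPM in numbers 3-4 and 648 to 660.1 CPM in numbers 1-2 in ASO-L1, 489 to 492 CPM in numbers 3-4 and 381 to 383 CPM in numbers 1-2 in SO-L1 and 474 to 501 CPM in numbers 3-4 and 385 to 386 CPM in numbers 1-2 in ASO-Ctr. This sum was higher in numbers 3-4 within each group. In all 6 libraries of numbers 3-4, 3 of its 7 tested markers were higher (against 9.17% of all tested genes) and 0 lower (against 9.27%). VIM went the other way within each group. It had 244 and 262 CPM in ASO-L1 numbers 3 and 4, against 340 and 328 CPM in numbers 1 and 2. ASO-Ctr had 111 and 106 CPM, against 123 and 125 CPM, and SO-L1 121 and 117 CPM, against 133 and 129 CPM, in the same order. Of the 7, 4 rose (57.1%, against 11.6% of all tested genes) and 0 fell (against 10.7%) against ASO-Ctr, by edgeR. At an unadjusted p under 0.05, 0 were lower. With the block 5 were higher (71.4%, against 22.5%) and 2 lower (28.6%, against 22.5%). DCN, LUM, FAP, COL3A1 and PDGFRB averaged under 1 CPM in every group and FAP had no count in any library.

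The 12 trophectoderm and amnion markers summed to 217 to 218 CPM in numbers 3-4 and 224 to 243 CPM in numbers 1-2 in ASO-L1, 178 to 182 CPM in numbers 3-4 and 178 to 180.2 CPM in numbers 1-2 in SO-L1 and 178 to 179.7 CPM in numbers 3-4 and 181 to 186 CPM in numbers 1-2 in ASO-Ctr. The sets were apart in ASO-L1 and ASO-Ctr, lower in numbers 3-4, and overlapped in SO-L1. KRT18 made up most of each sum and was higher in ASO-L1 than in ASO-Ctr. It had 148 and 150 CPM in ASO-L1 numbers 3 and 4 and 170 and 154 CPM in numbers 1 and 2. ASO-Ctr had 114 and 112 CPM, then 104 and 101 CPM, in the same order. TFAP2C, next in level, was lower in ASO-L1. It had 51.2 and 50.7, then 58.5 and 58.4 CPM there, against 52.6 and 53.2, then 70.7 and 69.3 CPM in ASO-Ctr. Of the 7 tested markers of this list 4 rose (57.1%, against 11.6% of all tested genes) and 0 fell (against 10.7%), by edgeR. At an unadjusted p under 0.05, 0 were lower. With the block 4 were higher (57.1%, against 22.5%) and 1 lower (14.3%, against 22.5%). GATA3, TFAP2A, CDX2, HAND1, VTCN1 and ISL1 averaged under 1 CPM in every group. The part of these markers in the changes under ASO-L1 was not tested.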

How the data were processed

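The 42 genes, the further lists and the tests were chosen with earlier results of these data known. The submitters' processing notes name Trim Galore 0.4.0, TopHat2 2.0.13, featureCounts and Subread 1.5.0 with build hg19. The authors deposited raw counts per gene, log2 values described in their file name as batch corrected (how, and over which batches, is not given in the sources used here), and a table for ASO-L1 against SO-L1 with log2 fold changes and adjusted p-values. The name of the count file carries a tag that may stand for removal of duplicates, of reads or rows. 1 row without a gene name, with 10 counts in all, was left out. In R 4.3.3, edgeR 4.0.16 kept 17228 genes (filterByExpr by group, minimum count 10, minimum total 15) with TMM factors and a robust quasi-likelihood fit to all 12 libraries, two-sided, with Benjamini-Hochberg adjustment over all tested genes. The SE is the log2 fold change over the square root of F. Named genes are those called in a group comparison, up to 10 called with the block in both ASO-L1 comparisons, and the 5 with the largest ratio between the sets; of other lists, up to 3 called genes with the smallest p, or the 2 with the highest mean. 1 gene that this rule names is not reported here.

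Libraries with the same number deviated together from their group means in all 12 pairs (correlation 0.45 to 0.56), and so did libraries of the same set with other numbers (0.45 to 0.54), while libraries of different sets did not (-0.53 to -0.43). Each group mean spans both sets, so a difference between sets by itself gives positive values within sets and negative ones between them. The numbers come from the labels, which do not say what they share. The variance between 2 libraries of a group was also set against that of counting alone. Within sets it was 1.87-fold (ASO-Ctr 3 and 4), 1.98-fold (SO-L1 3 and 4), 2.02-fold (ASO-L1 1 and 2) and 2.72-fold (SO-L1 1 and 2). It was 10.7-fold for ASO-L1 3 and 4 and 18.2-fold for ASO-Ctr 1 and 2, and 15.9-fold to 33.7-fold between sets. Alternatives were the replicate block, RLE factors, DESeq2 1.42.0, limma-voom (limma 3.58.1), no filter, each library left out, each set alone and limma on the authors' batch-corrected log2 values; the last, the blocked fit without each number, and all but 3 of the alternatives for the difference between sets were added after seeing the data. The fit without the block was tested on simulated data that held no difference between the sets. The blocked, within-set and interaction fits were not tested in this way.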

Additional observations from a re-analysis of the deposited data

Results flagged for a closer look

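PFKP in SO-L1 number 1 stood apart from its group, at 175 CPM against 184 to 185 CPM in the other 3 libraries. It was the 1 library that stood apart among 126 groups of 4 checked, and chance alone gives about 1 in 20. The check sets the gap at the end of a group against the range of its 4 libraries. A group that splits by set can hardly be flagged this way, and 34 of the 42 genes had sets that did not overlap. The count therefore cannot show that other libraries hold no outlying values. The change under ASO-L1 differed between the sets, by the edgeR interaction test, for 3 genes against ASO-Ctr: numbers 3-4 minus numbers 1-2 gave a log2 difference of 0.61 for PFKFB3, 0.61 for EGLN3 and 0.39 for ALDOC. Against SO-L1 the difference was 0.57 for PFKFB3, 0.50 for EGLN3, 0.31 for P4HA1 and -0.29 for BNIP3. Over the 12 fits that leave out 1 library, the PFKFB3 difference stayed past the threshold in both comparisons and the EGLN3 difference in that against ASO-Ctr.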

How the results depend on the processing

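The counts of called genes depended most on how the sets entered the fit. For ASO-L1 against ASO-Ctr, 3 genes higher became 6 with the replicate block, 11 in numbers 3 and 4 alone, 7 on the authors' batch-corrected log2 values and 1 to 3 when a library was left out, and 2 lower became 20, 12 and 20 under the first 3 of these, 23 in numbers 1 and 2 alone and 1 to 2 with a library left out. For ASO-L1 against SO-L1, 2 higher became 5 with the replicate block, 9 in numbers 3 and 4 alone, 7 on batch-corrected values, 1 with RLE factors, 1 without the filter and 1 to 2 with a library left out, and 2 lower became 22 with the block, 25 in numbers 1 and 2 alone, 14 in numbers 3 and 4 alone and 23 on batch-corrected values. The count of 0 for SO-L1 against ASO-Ctr held in all of them. Genes with a different change in the 2 sets numbered 2 to 9 (more positive) with a library left out, and 0 to 1 (more negative) with a library left out, with the block (1) and without the filter (1). Among the named genes, signs turned for PFKFB3 (-0.028 against ASO-Ctr; 0.066 with the block, 0.11 by voom, 0.42 in numbers 3-4, 0.12 on batch-corrected values, -0.27 to 0.26 with a library left out), EGLN1 (-0.022; 0.016, 0.087, 0.24, 0.079 and -0.33 to 0.34 in that order), ALDOC (-0.069; 0.18 in numbers 3-4, -0.24 to 0.17 with a library left out), EGLN3 (-0.12; 0.27 and -0.31 to 0.067) and PFKFB4 (-0.26; -0.52 to 0.029 with a library left out). Over all 42 genes, the sign differed from that of the full fit for up to 14 genes against ASO-Ctr (without ASO-Ctr 2; 11 without ASO-Ctr 1, 7 in numbers 3-4 alone and 4 in numbers 1-2 alone) and for up to 12 against SO-L1 (without SO-L1 2; 7 in numbers 3-4 alone and 3 in numbers 1-2 alone); 0 of these had passed the test in the full fit. In numbers 3-4 alone the change passed the test for PFKFB3, ALDOC and EGLN3. With a library left out, the 34 genes lower in numbers 3-4 became 34 to 35, and the median log2 ratio over all 42 genes ran from -0.86 to -0.83. The cause of these shifts was not tested, and the fits that leave some libraries out also rest on fewer of them. Depth limits CA9: its blocked log2 fold change was 0.12 with an SE of 0.20.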
